A study of Mus musculus with 22 samples.

Results

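Immature olfactory sensory neurons (iOSNs) were taken from single-cell RNA-seq of mouse olfactory epithelium (OE) by counts of named transcripts. A cell was kept when over 500 genes and over 1500 UMIs (unique molecular identifiers, each standing for 1 captured RNA molecule) were counted in it and mitochondrial transcripts made up under 20% of the UMIs. Of these, a cell was called an iOSN when Gap43 and Gng8 together had at least 8 UMIs and at least as many UMIs as Omp, Neurog1 and Neurod1 together had fewer than 2, and Cyp2g1, Cyp2a5 and Sec14l3 together made up less than 0.5% of its UMIs. Of 32293 barcodes 25185 cells were kept, and 1103 of them (4.38%) were iOSNs. The members were thus chosen by their measured levels of 8 transcripts, and levels of those transcripts are given only as a description. Just inside the limit, 208 iOSNs had 8 or 9 UMIs of Gap43 and Gng8, and just outside it 227 cells that met the other conditions had 6 or 7.

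The study asked how loss of UPF3B, a factor of nonsense-mediated RNA decay (NMD), changes the OE. Single-cell libraries were made on the Chromium 3′ v2 system from 4 wild-type mice (WT, Upf3b+/y) and 4 Upf3b-null mice (Upf3b-/y), all C57BL/6J males 7 to 8 weeks old, with 1 mouse per library and after removal of dead cells. Sorted mature OSNs were sequenced in bulk from other mice, 4 samples of each genotype and 3 pooled males of 8 to 9 weeks per sample, in which eYFP was switched on by Omp-Cre and therefore marks cells that have reached Omp expression.

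OSNs are renewed throughout life from basal stem cells, which divide and give rise to immediate neuronal precursors (INPs) marked by the proneural factors Neurog1 and Neurod1. The iOSN is the next stage, a postmitotic neuron that sends its axon to the olfactory bulb and selects a single olfactory receptor (Olfr) gene for expression. It matures into the mOSN, which carries olfactory marker protein (Omp) and the cilia in which odorant binding is turned into a current. Gap43 encodes a growth cone phosphoprotein and Gng8 a G protein gamma subunit of iOSNs. Their products give way to Gng13 and the other parts of the transduction cascade as the neuron matures.

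The iOSNs were spread unevenly over the 8 mice. In WT replicate 3, 2791 of 6707 barcodes (41.6%) passed the limits on quality, against 73.5 to 97.7% in the other 7 libraries. WT replicates 1 to 4 gave 77, 80, 3 and 91 iOSNs, and null replicates 1 to 4 gave 660, 63, 37 and 92. Null replicate 1 alone held 59.8% of all iOSNs, and WT replicate 3 held 3 of the 251 from WT mice. The median UMI total per iOSN was 3324, 3113, 5959 and 5320 in WT and 3127, 4891, 5045 and 4215 in null mice. Summed over the iOSNs of a mouse, the totals ranged from 17175 UMIs in WT replicate 3 to 2363320 in null replicate 1. A single UMI in WT replicate 3 therefore stands for 58.2 CPM (UMIs per 1000000 UMIs of the summed iOSNs of a mouse), against 0.423 CPM in null replicate 1. In a multidimensional scaling of the 8 sums, the first axis, with 65.7% of the variation, set WT replicate 3 apart from the other 7 mice. Of the barcodes, 628 occurred in more than 1 library, and 34 iOSNs carried one of them. No doublet caller was run, and 9 iOSNs had over 3 times the median UMI total of the iOSNs of their library.

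Upf3b itself checked the labels. Upf3b lies at chrX:37091678-37110322 on the minus strand of GRCm38. In all kept cells it was at 58.3, 63.1, 76.7 and 88.5 CPM in the 4 WT mice and at 0.479, 0.211, 1.24 and 0.990 CPM in the 4 null mice. In iOSNs it had 14, 9, 0 and 30 UMIs in WT (52.1, 33.4, 0 and 58.2 CPM) and 3, 0, 0 and 0 UMIs in null mice. All 3 null UMIs came from null replicate 1, where they amount to 1.27 CPM. The count of 0 in WT replicate 3 allows up to 175 CPM, so its 3 cells say nothing about Upf3b, while the WT mice with more cells all lay above every null mouse.

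Markers that the selection did not use served to check the label. Stmn2, a stathmin that regulates microtubules in growing axons, was at 3343 ± 696 CPM (SD, n = 8 mice) in iOSNs, 1633 ± 694 in cells that met an INP gate (Neurog1 and Neurod1 together at 2 UMIs or more) and 497 ± 102 in cells that met an mOSN gate (Omp at 8 UMIs or more and above Gap43 and Gng8). Calb2, which encodes the calcium-binding protein calretinin, was at 1717 ± 779 CPM in iOSNs, 46.1 ± 51.0 in INP-gate cells and 384 ± 128 in mOSN-gate cells. Both were higher in iOSNs than in either neighbouring class in all 8 mice. The gates were applied to the same kept cells and gave 568 INP-gate and 7090 mOSN-gate cells. Gap43, a selecting gene, was at 2702 ± 786, 77.4 ± 36.3 and 119 ± 44.4 CPM in iOSNs, INP-gate and mOSN-gate cells. Transcripts of other classes were unequal in iOSNs. The most abundant gene of the microvillous list, Ascl3, was at 8.68 CPM and that of the horizontal basal cell (HBC) list, the water channel Aqp3, at 38.5 CPM (175 in WT replicate 3), with the HBC keratin Krt14 at 6.24 CPM. The most abundant genes of other marker lists were higher as means over 8 mice. The secretory gland gene Scgb1c1 was at 606 CPM, the macrophage gene Cd74 at 163 CPM and the sustentacular gene Cbr2 at 151 CPM. Cd74 was at 805 CPM in WT replicate 2 and at no more than 140 CPM in any other mouse. The gland list summed to between 439 and 3555 CPM over the mice, and the part of such RNA in the results was not tested. Transcripts of neutrophils and erythrocytes were not near 0 either, and their levels are given below beside the results they move with.

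The first question was whether loss of Upf3b changes how many iOSNs the OE holds. Among kept cells iOSNs made up 4.20, 5.54, 0.107 and 2.95% in WT replicates 1 to 4 and 9.22, 4.72, 2.16 and 1.58% in null replicates 1 to 4. The genotypes overlapped, with the lowest value in a WT mouse and the highest in a null mouse. The means were 3.20 ± 2.32% in WT and 4.42 ± 3.48% in null mice (SD, n = 4 each), a difference of 1.22 percentage points that was smaller than the spread between mice (exact permutation test over mice, two-sided p = 0.629, adjusted over 5 measures p = 0.857). With 4 mice against 4 the smallest p this test can give is 0.0286.

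Measured against neuronal cells alone (INP gate, iOSN and mOSN gate together), iOSNs were 8.86, 12.4, 0.489 and 9.72% in WT mice and 23.7, 8.29, 5.20 and 6.38% in null mice. Null replicate 1 stood far above the other 7 mice and WT replicate 3 far below them. The place of WT replicate 3 depended on the mitochondrial limit, since with a limit of 10% its share was 5.66%, beside 5.51% in null replicate 3. The genotype difference was then 2.16 percentage points (exact permutation p = 0.914). The same 3 iOSNs of WT replicate 3 met both limits, and its share rose because most of its other gated neuronal cells were above 10%. Of its kept cells iOSNs were then 0.726%, against 0.107%. The cells above 10% stay in the values over 8 mice below. The means of 7.86 ± 5.14% and 10.9 ± 8.64% did not differ beyond their spread (exact permutation p = 0.657, adjusted p = 0.857). The difference, 3.03 percentage points, was 8.59 after thinning to 1500 UMIs with the limit on Gap43 and Gng8 lowered to 4 UMIs, and 1.81 at 12 UMIs or more of Gap43 and Gng8. Without WT replicate 3 the differences in kept and in neuronal cells were 0.188 and 0.573 points. Both differences changed sign without null replicate 1, to -0.380 and -1.24 percentage points, and without WT replicate 3 and null replicate 1 they were -1.41 (exact permutation p = 0.3) and -3.70 (exact permutation p = 0.1). The direction of the share thus rested on null replicate 1.

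**Figure D1:**
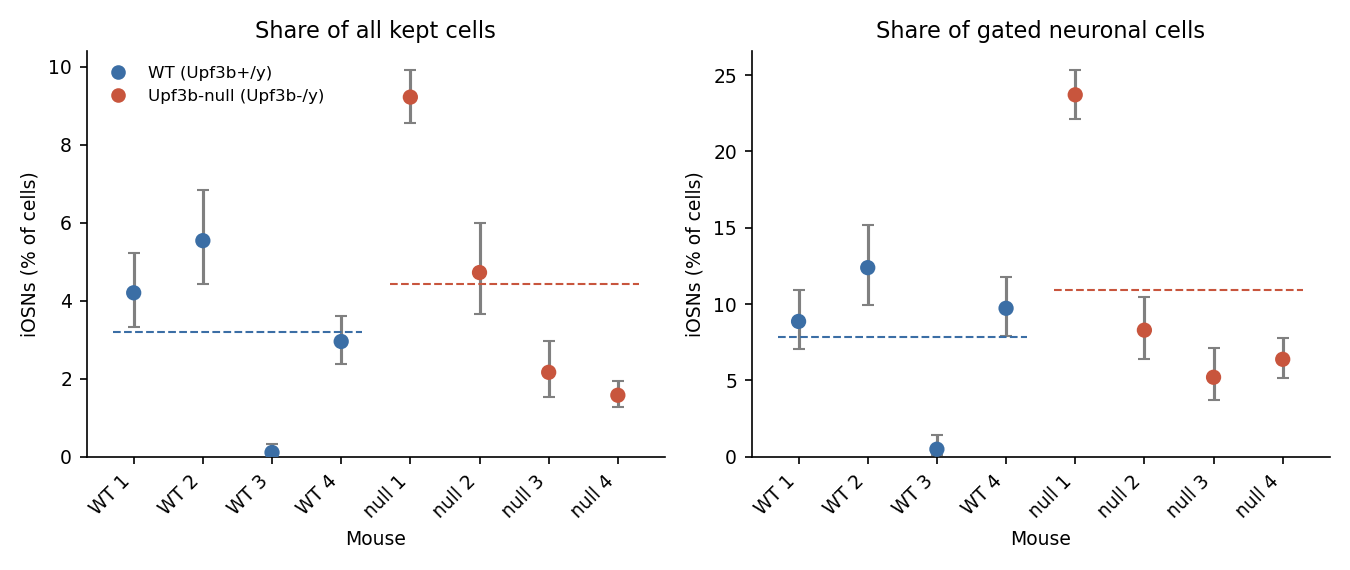
Share of iOSNs in each mouse, as a percent of all kept cells (left) and of gated neuronal cells (right), with WT in blue and Upf3b-null in red. Bars are exact 95% binomial intervals, which cover counting error alone, and dashed lines are group means. The 4 WT and 4 null mice overlap in both panels, null 1 is the highest at 9.22% and 23.7%, and WT 3 the lowest at 0.107% and 0.489%.

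A set of transcripts was higher in iOSNs than in both INP-gate and mOSN-gate cells. Because the classes were cut by marker levels, differences between them are described without a test. Of 1807 genes at 100 CPM or more in iOSNs, 775 had their highest mean in iOSNs, 520 in INP-gate and 512 in mOSN-gate cells, and 212 were above both neighbours in all 8 mice. Genes entered this set by their iOSN level, which favours iOSNs in the count. Genes that peak in a neighbouring class and are low in iOSNs are left out. The 18 INP-gate cells of WT replicate 3 stood apart from those of the other mice. In them gland genes summed to 248555 CPM, against 188 to 3099 in the other 7 mice, and Omp was at 1594 CPM, Gng13 at 2480 and Sox11 at 443, against at most 502 CPM of Omp, at most 706 of Gng13 and at least 2196 of Sox11. Without that library, chosen after seeing the data, 668 of the 1807 genes had their highest mean in iOSNs, 605 in INP-gate and 534 in mOSN-gate cells. By fold over the higher neighbour the leading 15 of those 212 were Gap43, Prph, Mapt, Stk32a, Pde8a, Ina, Calb2, Rnf144a, Ly6h, Rprm, Ccdc28a, Nrxn2, Arhgdig, Socs2 and Vim. CPM here counts 3′ ends and is not scaled to transcript length.

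Prph encodes peripherin, an intermediate filament protein of neurons with long axons, and was at 190 ± 62.6 CPM in iOSNs against 6.42 ± 8.6 in INP-gate and 7.54 ± 4.8 in mOSN-gate cells. Its iOSN level was 261, 197, 291 and 159 CPM in WT and 163, 212, 134 and 107 CPM in null mice, and the genotypes overlapped. Vim, which encodes the intermediate filament protein vimentin, was at 532 ± 198 CPM, 3.22-fold above INP-gate and 15.3-fold above mOSN-gate cells. Mapt, which encodes the axonal microtubule-associated protein tau, was at 121 ± 77.1 CPM in iOSNs and near 10 CPM on either side (11.04 ± 15.8 and 9.33 ± 9.1). Ina, for the filament protein alpha-internexin, was at 177 ± 147 CPM against 25.6 ± 17.6 and 22.5 ± 8.0. Of the other leading genes, Rprm, whose product reprimo halts the cell cycle, was at 616 ± 247 CPM against 135 and 52.2, Arhgdig at 721 ± 180 against 206 and 81.4, and Socs2, a feedback inhibitor of cytokine signalling, at 582 ± 146 against 165 and 92.2.

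Of 32 growth cone and axon extension genes, 22 had their highest mean in iOSNs, 8 in INP-gate and 2 in mOSN-gate cells. Gap43 and Gng8, which the selection used, are among them. Without both, 20 of 30 had their highest mean in iOSNs, and the summed level was 45467 ± 8984 CPM in iOSNs, 37006 ± 12246 in INP-gate and 22992 ± 4446 in mOSN-gate cells. Without WT replicate 3 the sums were 45899 ± 9614, 40926 ± 5614 and 24016 ± 3643 CPM. The difference between iOSNs and INP-gate cells then lay within the spread, and 20 of 30 genes were again highest in iOSNs. The most abundant members were Tmsb4x, Tmsb10 and Stmn1, which bind actin monomers (the thymosins) or tubulin (stathmin). Tmsb10 was at 6714 ± 1636 CPM in iOSNs, 1.77-fold above INP-gate and 9.15-fold above mOSN-gate cells. Tmsb4x ran the other way, at 8137 ± 1201 CPM in iOSNs against 14639 ± 4619 and 11840 ± 2987. Tubulin genes Tuba1a (5603 ± 2617 CPM) and Tubb2b (1436 ± 515 CPM), the microtubule proteins Dcx (331 ± 215 CPM) and Map1b (2259 ± 606 CPM) and the adhesion molecule Ncam1 (1243 ± 367 CPM) were above both neighbours in all 8 mice. The axon guidance genes were divided. Of 31 with any UMI in iOSNs, 11 peaked in iOSNs and 16 in mOSN-gate cells. Nrp1, a receptor for class 3 semaphorins, was at 132 ± 64.3 CPM in iOSNs against 9.85 and 47.0, while Cntn4, an adhesion molecule of olfactory axons, was at 53.5 CPM in INP-gate cells, 392 ± 101 in iOSNs and 453 in mOSN-gate cells.

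Factors of neuronal specification were past their peak and transduction genes were short of theirs. Of 15 neurogenic genes with UMIs in iOSNs, leaving out Neurog1 and Neurod1, which the gates used, 11 had the highest mean in INP-gate cells, 4 in iOSNs and 0 in mOSN-gate cells. Sox11 was at 1447 ± 526 CPM in iOSNs against 2960 ± 1344 in INP-gate and 97.4 ± 94.3 in mOSN-gate cells, and Hes6 at 209 ± 87.9 against 878 ± 437 and 46.1 ± 29.9. Nhlh1, a bHLH factor of newly born neurons, was at 235 ± 127 CPM in iOSNs, 167 ± 65.1 in INP-gate and 9.7 ± 13.1 in mOSN-gate cells. All 18 transduction genes with UMIs, leaving out Omp, which defines the mOSN gate, peaked in mOSN-gate cells. Their sum was 8008 ± 1624 CPM in iOSNs, 2583 ± 2308 in INP-gate and 25749 ± 5658 in mOSN-gate cells. Without WT replicate 3 the sum in INP-gate cells was 1802 ± 727 CPM, 12 of the 15 neurogenic genes had their highest mean there, and the 18 transduction genes were again highest in mOSN-gate cells. They were not equally advanced in iOSNs. Gnb1, for the beta subunit of G proteins, was at 2439 ± 1084 CPM against 3828 ± 1785 in mOSN-gate cells and the receptor chaperone Rtp1 at 253 ± 59.8 against 467 ± 101, whereas Stoml3, a stomatin of the cilia, was at 458 ± 64.6 against 5020 ± 814 and the adenylate cyclase Adcy3 at 61.9 ± 27.1 against 611 ± 103. In all, mOSN-gate cells exceeded iOSNs 1.85-fold for Rtp1, 3.22-fold for Gng13, 9.87-fold for Adcy3 and 10.96-fold for Stoml3.

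Cell cycle genes were low. Of 18 listed, 17 had their highest mean in INP-gate cells, and Top2a, needed to separate replicated chromosomes, was at 25.2 ± 29.2 CPM in iOSNs against 386 ± 246 in INP-gate cells. The 1 exception was Stmn1, which also belongs to the growth cone genes and made up most of the list's sum in iOSNs.

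Genes of receptor choice and of the unfolded protein response were taken from separate lists. In OSNs the first receptor made is thought to act through the PERK branch of that response and translation of Atf5 to fix the choice. Among all genes at 100 CPM or more in iOSNs, 775 of 1807 peaked in iOSNs (668 without WT replicate 3). The lists needed only some UMI in iOSNs, so their counts do not share that limit. Of 27 receptor choice genes 10 peaked in iOSNs, 10 in INP-gate and 7 in mOSN-gate cells. Of 19 genes of the stress response 14 peaked in iOSNs, 3 in INP-gate and 2 in mOSN-gate cells, and their sum was 5492 ± 1137 CPM in iOSNs, 2563 ± 211 in INP-gate and 3953 ± 489 in mOSN-gate cells. Atf5, which is in both lists, was at 2458 ± 787 CPM, 3.92-fold above INP-gate and 1.40-fold above mOSN-gate cells. Ddit3, the transcription factor CHOP, was at 358, 452, 408 and 196 CPM in WT and 333, 394, 263 and 119 CPM in null iOSNs, with means over 8 mice of 315 ± 114 in iOSNs, 28.8 ± 18.9 in INP-gate and 137 ± 38.0 in mOSN-gate cells. It was above both neighbours in each of the 8 mice. Its partner genes Trib3 (105 ± 54.5 CPM) and Herpud1 (376 ± 111 CPM) were likewise highest in iOSNs in each mouse. The receptor choice factors Ebf1 (2109 ± 368 CPM) and Lhx2 (781 ± 246 CPM) parted, Ebf1 with its highest mean in iOSNs and Lhx2 in INP-gate cells (2140 ± 873). Kdm1a, the lysine demethylase that opens a receptor locus, went from 197 ± 89.1 CPM in INP-gate to 113 ± 41.4 in iOSNs and 44.2 ± 15.8 in mOSN-gate cells.

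Within the iOSNs, cells were ordered by Omp. In 426 cells no Omp UMI was found, in 486 Omp made up to 0.25 of the UMIs of Omp, Gap43 and Gng8 together, and in 191 it made up more. WT replicate 3 had cells only in the middle class and is left out of the values by Omp class, which come from 7 mice. The Omp-free class held 10 cells in WT replicate 4, 2 in null replicate 3, 7 in null replicate 4 and 33 to 294 in the other 4 mice, and the high-Omp class held 7 to 97 cells per mouse. Among all 4171 genes at 40 CPM or more that the selection did not use, 182 were higher and 94 lower in the high-Omp than in the Omp-free cells in all 7 mice. Of 16 transduction genes at 40 CPM or more, 6 (Omp, which defines the classes, and Cngb1, Gnal, Gng13, Stoml3 and Nsg1) were higher in the high-Omp than in the Omp-free cells in all 7 mice, and 0 were lower in all 7. Gng13 was at 1166 ± 330, 2441 ± 874 and 4212 ± 2522 CPM in the Omp-free, low and high classes, and Stoml3 at 152 ± 155, 464 ± 197 and 1064 ± 385. Of 30 growth cone genes at 40 CPM or more, 9 were lower in the high-Omp than in the Omp-free cells in all 7 mice (Stmn2, Stmn1, Dpysl3, Dpysl5, Marcksl1, Marcks, Basp1, Tubb2b and Tmsb10) and 2 higher (Stmn4 and Tmsb4x). Gap43 and Gng8, which the selection and the Omp classes used, are among the 30 but not among the 9 or the 2. Vim, at 775 ± 232, 566 ± 115 and 242 ± 102 CPM, and Arhgdig, at 990 ± 365, 675 ± 137 and 402 ± 102 CPM, were also lower in high-Omp cells in all 7 mice. Gap43, whose UMIs enter the measure that sets the classes, was at 3174 ± 801 CPM without Omp, 2994 ± 773 with low and 1854 ± 740 with high Omp. Calb2 was at 1239 ± 583, 2137 ± 1178 and 2436 ± 1048 CPM, with a higher level in high-Omp than in Omp-free cells in 6 of 7 mice. The leading iOSN genes Socs2, Stk32a and Ly6h also had higher means with high Omp, Socs2 at 435 ± 248 CPM without and 598 ± 179 with high Omp, but in no more than 4 of 7 mice. None of the 21 receptor choice and 15 stress response genes at 40 CPM or more differed in the same direction in all 7 mice. Without null replicate 3, chosen after seeing the data, 13 growth cone genes, 3 receptor choice genes and 234 of the 4171 genes were lower in the other 6 mice, and 2, 0 and 259 were higher, with 6 transduction genes higher as before. Ddit3, at 277 ± 73.7, 341 ± 174 and 345 ± 173 CPM, overlapped between the classes.

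The share of iOSNs without an Omp UMI followed the library more than the genotype. It was 48.1, 53.8, 0 and 10.99% in WT and 44.5, 52.4, 5.41 and 7.61% in null replicates 1 to 4. In both genotypes replicates 1 and 2 lay above 40% and replicates 3 and 4 at or below 10.99%. The labels do not say what sets the replicate numbers apart. The part of free Omp RNA in this split was not tested.

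**Figure D2:**
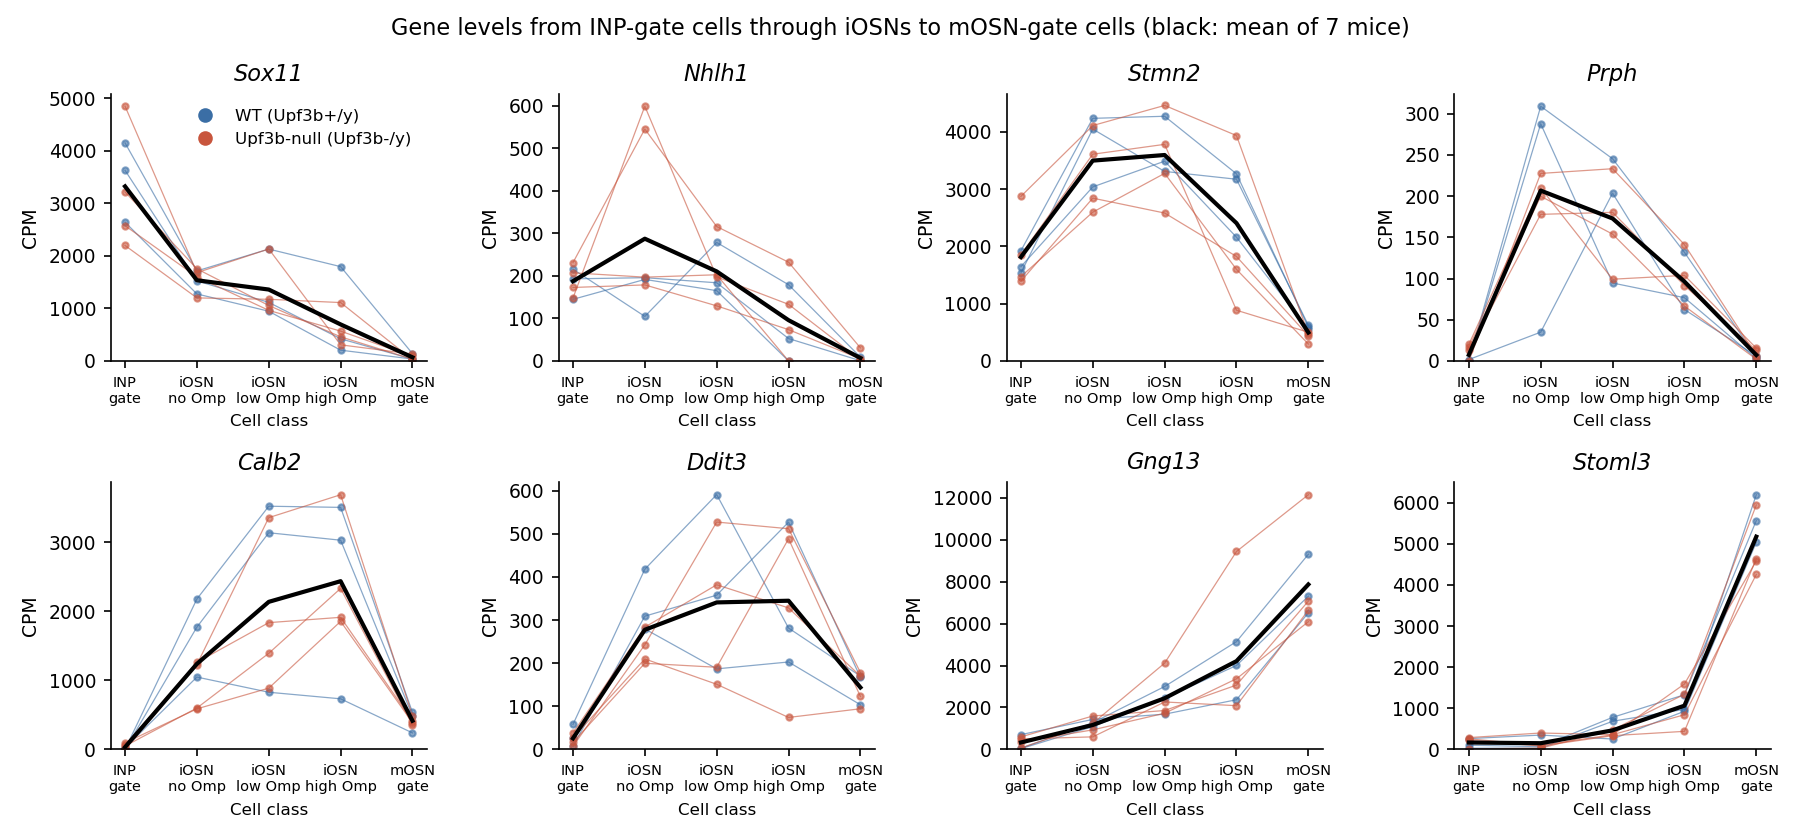
Level of 8 genes (CPM, linear axis from 0) in INP-gate cells, in iOSNs without Omp, with low and with high Omp, and in mOSN-gate cells. Thin lines join the classes of 1 mouse, WT in blue and null in red, and the black line is the mean of 7 mice, without WT replicate 3. Sox11 declines across the classes, and Stmn2, Prph and Ddit3 peak inside the iOSNs. Gng13 and Stoml3 climb from the iOSNs without Omp to the mOSN gate. Mice of both genotypes are intermixed.

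Olfr transcripts were detected in a large share of iOSNs. To remove differences in depth, each cell was thinned to 1500 UMIs. An Olfr UMI was then found in 46.8, 50.0, 66.7 and 50.5% of iOSNs in WT replicates 1 to 4 and in 33.3, 33.3, 54.1 and 33.7% in null replicates 1 to 4. WT replicate 3 contributed 2 of 3 cells. Null replicates 1, 2 and 4 lay below the 4 WT mice and null replicate 3 above 3 of them. The means were 53.5 ± 8.94% in WT and 38.6 ± 10.3% in null mice, a difference of -14.9 percentage points that did not pass the test (exact permutation over mice, two-sided p = 0.114, adjusted over 5 measures p = 0.571). Leaving out null replicate 3 gave -20.0 (exact permutation p = 0.0286, the smallest p that 4 against 3 mice can give). Without thinning the shares were 61.0, 62.5, 100 and 75.8% in WT and 45.9, 52.4, 70.3 and 54.3% in null mice.

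In mOSN-gate cells of the same libraries the thinned shares were 53.3, 58.5, 67.6 and 62.7% in WT and 47.3, 48.7, 52.2 and 60.9% in null mice. In INP-gate cells they were 0 (0 of 29 cells), 0 (0 of 14), 61.1 (11 of 18) and 18.7% in WT and 7.92, 0, 0 and 13.1% in null mice. The 61.1% came from the INP-gate cells of WT replicate 3 that stood apart above. As a level for cells that do not express Olfr genes, sustentacular-like cells (supporting cells, named by Cyp2g1, Cyp2a5 and Sec14l3 at 2% of UMIs or more) gave 5.56, 7.32, 18.5 and 15.1% in WT and 5.13, 0, 14.5 and 8.45% in null mice, and HBC-like cells (5 UMIs or more of Krt5, Krt14 and Krt15) gave 1.60, 0, 14.7 and 16.8% and 4.81, 0, 8.33 and 12.6%. The iOSN share was above that of sustentacular-like and HBC-like cells in each of the 8 mice. These background levels were all higher in replicates 3 and 4 than in replicates 1 and 2 of the same genotype. Their part in the iOSN shares was not tested.

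**Figure D3:**
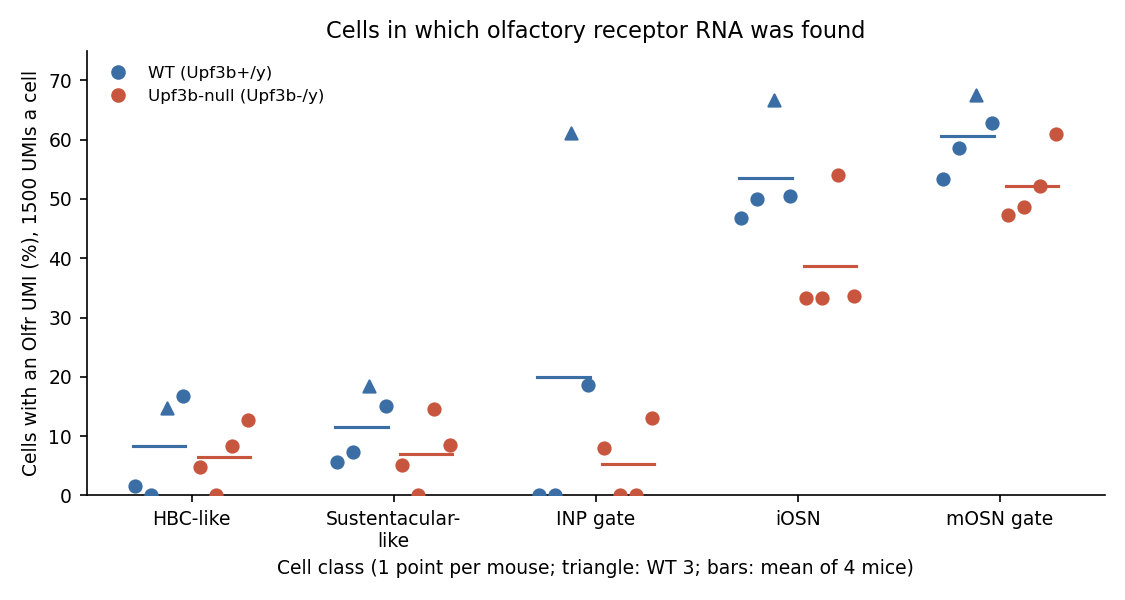
Percent of cells with at least 1 Olfr UMI after thinning to 1500 UMIs, in 5 cell classes, 1 point per mouse (WT blue, Upf3b-null red, WT replicate 3 a triangle) with bars at the mean of 4 mice. In iOSNs the WT points lie between 46.8% and 66.7% and the null points between 33.3% and 54.1%, above the sustentacular-like and HBC-like points of the same mice.

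The number of Olfr genes per iOSN was limited by depth, with a mean of 1.23 Olfr UMIs per thinned iOSN in WT and 0.937 in null mice. At 1500 UMIs, 5.56, 0, 0 and 23.9% of Olfr-positive iOSNs in WT and 9.09, 4.76, 5 and 9.68% in null mice held UMIs of at least 2 Olfr genes. The means, 7.37 ± 11.3% and 7.13 ± 2.61%, did not differ beyond the spread (exact permutation p = 0.943, adjusted p = 0.943). Before thinning, the shares were 14.9, 10, 33.3 and 46.4% in WT and 19.1, 15.2, 30.8 and 26% in null mice. WT replicate 4, the highest at both depths, also had one of the higher backgrounds of Olfr UMIs in other classes.

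With all UMIs, a single leading Olfr gene (at least 2 UMIs and no tie) could be given to 320 iOSNs, and these used 207 of the 1126 Olfr genes in the matrices. Of the 207, 143 led in 1 cell and 64 in 2 or more, and 35 led in cells of both genotypes. Olfr722 led in the most cells, 7, of which 1 was WT and 6 were null. The study drew up 78 Olfr genes from sorted mOSNs of other mice, 73 of which are in the matrices. After thinning, they led in 2 of 17, 3 of 21 and 6 of 22 WT iOSNs with a leading gene (WT replicate 3 had none) and in 15 of 98, 1 of 9, 0 of 3 and 4 of 14 null iOSNs. The mean shares were 17.8 ± 8.32% (n = 3) and 13.7 ± 11.8% (n = 4), and they did not differ beyond the spread (exact permutation p = 0.686, adjusted p = 0.857). Leaving out 1 mouse at a time moved the difference of -4.03 percentage points to values from -8.97 to 0.722, so its direction was not stable. Few cells stand behind these shares, and none of the 73 genes had enough UMIs to be tested on its own.

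To ask which transcripts differ between WT and null iOSNs, UMIs were summed over the iOSNs of each mouse and compared by edgeR's quasi-likelihood test. Of 4516 genes with enough counts, 0 passed a Benjamini-Hochberg adjusted p of 0.05 (0% called), and DESeq2 likewise called 0. At an unadjusted p under 0.05 there were 70 genes (1.55%) by edgeR, 61 higher in null mice (1.35%) and 9 lower (0.199%), and 45 by DESeq2. The biological coefficient of variation among mice was 35.4%. In bulk or summed samples, fewer RNA molecules per cell and a shift in the mix of cells cannot be told apart. The genes below were taken in order of unadjusted p, 5 in each direction, none of them passed the adjusted threshold (adjusted p = 0.9998 by edgeR for each), and the values are given as measured.

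Selm (now Selenom, chr11:3514684-3517351, plus strand), which encodes a selenoprotein of the endoplasmic reticulum, had the lowest unadjusted p. It was at 894, 997, 349 and 547 CPM in WT and 2064, 1529, 1796 and 1334 CPM in null iOSNs. The 4 null mice all lay above the 4 WT mice, which held for 22 of the 4516 genes (0.487%). The means were 697 ± 301 and 1681 ± 318 CPM, a log2 fold change of 1.33 (SE 0.29, edgeR unadjusted p = 0.000402 with 4 mice in each group). In mOSN-gate cells of the same mice Selm was at 271 ± 32.0 and 317 ± 79.1 CPM. The genotype difference in iOSNs exceeded that in mOSN-gate cells by 1.04 on the log2 scale, which did not pass adjustment (edgeR interaction test, adjusted p = 0.871). The interaction passed without WT replicate 2, without null replicate 4 and with no filter on low counts. Across stages Selm was highest in INP-gate cells, at 3208 ± 1726 CPM against 1189 ± 599 in iOSNs and 294 ± 60.9 in mOSN-gate cells.

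Lmo1, a transcriptional cofactor with LIM domains, was at 44.7, 77.9, 58.2 and 56.3 CPM in WT and 151, 192, 139 and 82.2 CPM in null iOSNs, again without overlap (log2 fold change 1.33, SE 0.34). For Lmo1, and for Wfdc21 below, the 58.2 CPM of WT replicate 3 was a single UMI. The other 3 genes of this direction overlapped between genotypes. Wfdc21, a neutrophil transcript, had a log2 fold change of 3.04 (SE 0.85) with values of 7.45, 3.71, 58.2 and 19.4 CPM in WT and 171, 3.48, 91.1 and 112 CPM in null mice. The pseudogene Gm8730 (2.41, SE 0.66, and 1.52 without null replicate 1) and the retrogene Rps27rt (1.33, SE 0.38) can share reads with the genes they were copied from, and their values are uncertain for that reason.

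For all 5 genes in the other direction the 4 null mice lay below the 4 WT mice, as they did for 53 of 4516 genes (1.17%). With WT replicate 3 set aside, genes without overlap numbered 35 higher (0.775%) and 96 lower (2.13%) in null mice. Bri3bp, for a membrane protein that binds BRI3, was at 48.4, 55.6, 58.2 and 42.7 CPM in WT and 16.9, 20.9, 5.36 and 25.1 CPM in null iOSNs (log2 fold change -1.32, SE 0.41). The 58.2 CPM of WT replicate 3 was a single UMI. Ctnnbip1, an inhibitor of beta-catenin in Wnt signalling, was at 380, 293, 408 and 285 CPM against 194, 202, 188 and 153 CPM (-0.72, SE 0.25). Smad1, a transducer of BMP signals, was at 37.2, 44.5, 175 and 54.3 CPM against 25.8, 13.9, 26.8 and 27.4 CPM (-0.99, SE 0.43), where the highest value, of WT replicate 3, came from its 3 cells. Ubtf, a factor of RNA polymerase I, had a log2 fold change of -0.85 (SE 0.35), and Gm10116 (now Ftl1-ps1), which resembles the ferritin light chain gene, of -0.86 (SE 0.34).

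**Figure D4:**
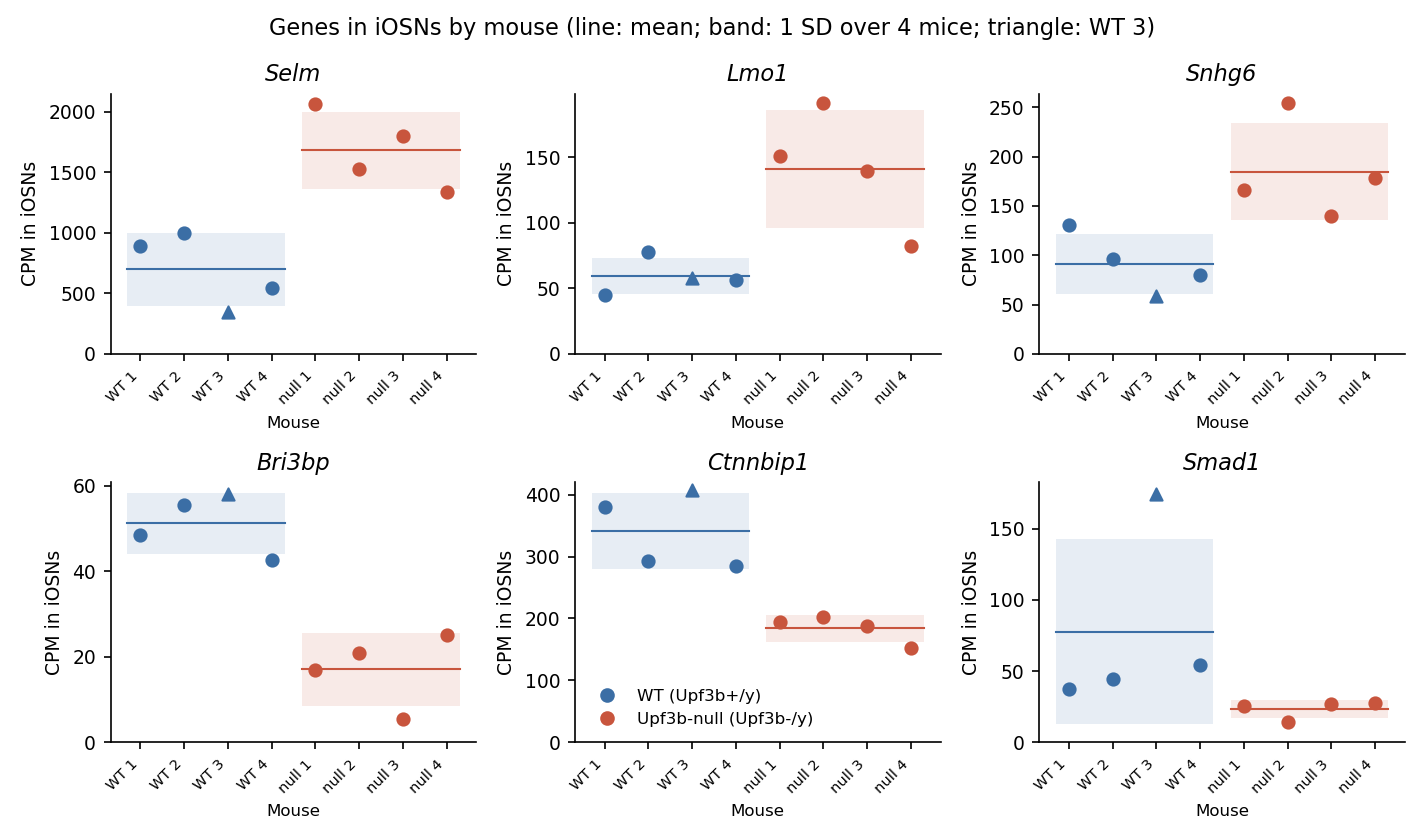
CPM of 6 genes in the summed iOSNs of each mouse (linear axes from 0), WT in blue and Upf3b-null in red, with WT replicate 3 as a triangle, group means as lines and 1 SD over 4 mice as bands. For Selm, Lmo1 and Snhg6 the 4 null points lie above the 4 WT points, and for Bri3bp, Ctnnbip1 and Smad1 below them. The WT replicate 3 point is a single UMI for Lmo1, Snhg6 and Bri3bp. None of the 6 genes passed adjustment over 4516 genes (edgeR).

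The iOSN markers outside the selection rule did not separate the genotypes. Stmn2 was at 3680 ± 407 CPM in WT and 3006 ± 813 in null iOSNs (log2 fold change -0.16, SE 0.20, edgeR adjusted p = 0.9998), and Calb2 at 1689 ± 1085 and 1746 ± 486 (0.13, SE 0.37, edgeR adjusted p = 0.9998). Calb2 was at 2447, 2792, 699 and 817 CPM in WT replicates 1 to 4, and its direction changed without WT replicate 3 (-0.10). Of the 28 growth cone genes tested, 10 were higher and 18 lower in null iOSNs (median log2 fold change -0.13, beside 0.02 over all 4516 genes). Tmsb4x (8523 ± 1603 against 7751 ± 631 CPM), Tmsb10 (6986 ± 932 against 6442 ± 2275) and Stmn1 (6541 ± 1886 against 4996 ± 1866) all overlapped. Axon guidance genes were divided 7 to 9 (median -0.13), with Cntn4 at 443 ± 51.6 CPM in WT and 341 ± 119 in null mice.

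Genes of receptor choice were higher in 6 and lower in 15 cases with a median of -0.19. None of the 21 tested had an unadjusted p under 0.05. Atf5 was at 2805 ± 626 CPM in WT and 2111 ± 855 in null iOSNs, Ebf1 at 1973 ± 303 and 2245 ± 419, and Lhx2 at 822 ± 345 and 741 ± 132. Stress response genes were higher in 5 and lower in 10 cases (median -0.05), with Hsp90b1 at 467 ± 143 and 435 ± 190 CPM and Herpud1 at 408 ± 144 and 343 ± 73.0. Transduction genes were higher in 13 of 15 (median 0.11), with Gnb1 at 2446 ± 1043 and 2431 ± 1287 CPM, Nsg1 at 808 ± 377 and 895 ± 231, and Gng13 at 2032 ± 238 and 2538 ± 917 (log2 fold change 0.45, SE 0.24). Null replicate 2, at 3848 CPM, was the highest for Gng13 and the other 7 mice lay between 1726 and 2402 CPM. Neurogenic genes were divided 4 to 4, with Sox11 at 1690 ± 695 CPM in WT and 1204 ± 65.4 in null mice, Insm1 at 506 ± 177 and 397 ± 83.8, and Nhlh1 at 274 ± 171 and 195 ± 67.0. The 5 tested genes with zonal expression in the OE were all lower in null iOSNs (median -0.37), with none at an unadjusted p under 0.05. For Nfib the levels were 273 ± 152 and 183 ± 78.4 CPM.

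Genes of the NMD pathway did not move together. NMD degrades transcripts with a premature stop codon, a long 3′ UTR or an upstream reading frame, and UPF3B serves one of its branches. Of 14 NMD factors tested, 8 were higher and 6 lower in null iOSNs (median log2 fold change 0.03). The most abundant, the exon junction complex genes Rbm8a (274 ± 85.5 against 262 ± 95.3 CPM), Magoh (106 ± 37.3 against 122 ± 38.5) and Rnps1 (119 ± 27.3 against 102 ± 11.5), overlapped. Of 23 known NMD substrates tested, 14 were higher and 9 lower with a median of 0.11. Srsf3 was at 776 ± 200 CPM in WT and 567 ± 100 in null mice, Srsf2 at 473 ± 116 and 387 ± 64.1, and Luc7l2 at 418 ± 221 and 256 ± 105, all sums over isoforms that include the coding ones. A single substrate, Snhg6, a host gene of small nucleolar RNAs without a coding function of its own, had an unadjusted p under 0.05. It was singled out after its values were seen. Snhg6 was at 130, 96.4, 58.2 and 79.5 CPM in WT and 166, 254, 139 and 178 CPM in null iOSNs, without overlap (log2 fold change 1.01, SE 0.31, edgeR adjusted p = 0.9998). Its 58.2 CPM in WT replicate 3 was a single UMI. In mOSN-gate cells Snhg6 was at 41.5 ± 6.45 and 120 ± 25.4 CPM. Both cell classes come from the same mice and are not independent of each other.

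No gene of energy metabolism or of the ribosome was called by edgeR. The fitted fold change was above 0 for 2384 of 4516 among all genes tested that the selection did not use. Ribosomal protein genes were higher in 68 of 77 (median 0.20), nuclear genes of oxidative phosphorylation in 65 of 76 (median 0.21) and mitochondrially encoded genes in 11 of 12 (median 0.34). Among them Rpl36 was at 764, 905, 582 and 937 CPM in WT and 1111, 1323, 1528 and 1135 CPM in null mice (log2 fold change 0.76, SE 0.24) and did not overlap. The counts depend on scaling, since with library totals in place of TMM factors the median over all genes moved from 0.02 to -0.10. Genes within a group are not independent replicates. Immediate early genes were higher in 7 of 8 (median 0.24), with Jund, the most abundant, at 475 ± 213 and 392 ± 89.3 CPM. Interferon and MHC genes were higher in 5 of 6 (median 0.75), with Ifitm2, the most abundant, at 118 ± 49.6 CPM in WT and 184 ± 61.0 in null mice (log2 fold change 0.63, SE 0.35) and B2m, the only one below 0 among the 6, at 148 ± 55.4 and 127 ± 53.5 (log2 fold change -0.08, SE 0.39). Of 88 immune genes that the study chose on these samples, 52 were tested, and 33 were higher and 19 lower (median 0.12), a list that is not independent evidence of its direction.

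Neutrophil transcripts were measured in the iOSN sums in amounts that differed widely between mice. All 10 tested members of an 18-gene neutrophil list were higher in null mice (median log2 fold change 2.78). Of these, 7 (Wfdc21, Lcn2, Chil3, Camp, Lyz2, Ngp and Retnlg) had an unadjusted p under 0.05 by edgeR, beside 1.35% of all genes in that direction. The 10 are the members that passed the filter on low counts. A gene of low level can pass it through the mice where it is high, so the shared direction is not independent of the filter. Summed over the 18 genes, none of which was at 0, the level in iOSNs was 250, 356, 1747 and 2132 CPM in WT and 8563, 188, 7130 and 7117 CPM in null replicates 1 to 4. Null replicate 2 was the lowest of the 8 mice, so the genotypes overlapped. S100a8, the most abundant member, which encodes an alarmin stored in the neutrophil cytosol, was at 70.8, 130, 524 and 890 CPM in WT and 2879, 59.2, 3115 and 3169 CPM in null mice.

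Cells of other types in the same libraries carried these transcripts as well. The same 18 genes summed to 2740, 1026, 1446 and 1958 CPM in sustentacular-like cells of WT mice and 3598, 742, 8020 and 6624 CPM in those of null mice. In mOSN-gate cells they summed to 2573, 1882, 6871 and 5196 CPM and to 8670, 346, 10714 and 15864 CPM. Camp, the cathelicidin of neutrophil granules, was at 29.8, 26.0, 175 and 142 CPM in WT iOSNs and 1436, 24.4, 724 and 411 CPM in null iOSNs, and at 27.4, 8.58, 265 and 179 CPM and 2089, 22.6, 865 and 749 CPM in HBC-like cells. In iOSNs, sustentacular-like and mOSN-gate cells null replicate 2 had the lowest sum and null replicates 1, 3 and 4 the highest ones. In INP-gate cells the sums were 193, 855, 6250 and 4026 CPM in WT and 3997, 133, 7212 and 6767 CPM in null mice, with null replicate 1 below WT replicates 3 and 4. Camp UMIs amounted to 42.1, 20, 33.3 and 15.9% of S100a8 UMIs in WT iOSNs and 49.9, 41.2, 23.2 and 13.0% in null iOSNs, beside 42.1, 32.9, 19.0 and 24.9% and 48.0, 26.7, 27.6 and 19.3% in neutrophil-like cells (S100a8 and S100a9 together at 50 UMIs or more) of the same mice. The iOSN ratios rest on only 19, 35 and 9 S100a8 UMIs in WT replicates 1 to 3 and 17 in null replicate 2. Haemoglobin and other erythroid genes summed to 3423, 51.9, 2445 and 5990 CPM in WT and 2866, 115, 16270 and 13130 CPM in null iOSNs. Their 5 tested members were all higher in null mice (median 1.51), as were the 5 tested of 17 gland genes (median 0.47). So were 2 of 3 tested macrophage genes (median 1.64) and the single tested sustentacular gene. These members passed the same filter on low counts. The gland gene Obp1a, not tested, was at 291 ± 387 CPM in WT and 156 ± 269 in null iOSNs. Whole lists summed to 1526 ± 1325 and 2021 ± 1317 CPM for gland genes. The sums were 478 ± 623 and 372 ± 246 for macrophage and 508 ± 465 and 433 ± 273 for sustentacular genes. HBC, microvillous, ensheathing and stromal genes were too low to be tested, and the only tested gene of the B cell list, Ebf1, is also an iOSN gene. Of the 1103 iOSNs, 903 held at least 3 UMIs of markers of other cell types, and without them 1 gene was called, Crabp1, from the 2 WT and 2 null mice that still had cells. The part of such RNA in the genotype differences above was not tested.

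**Figure D5:**
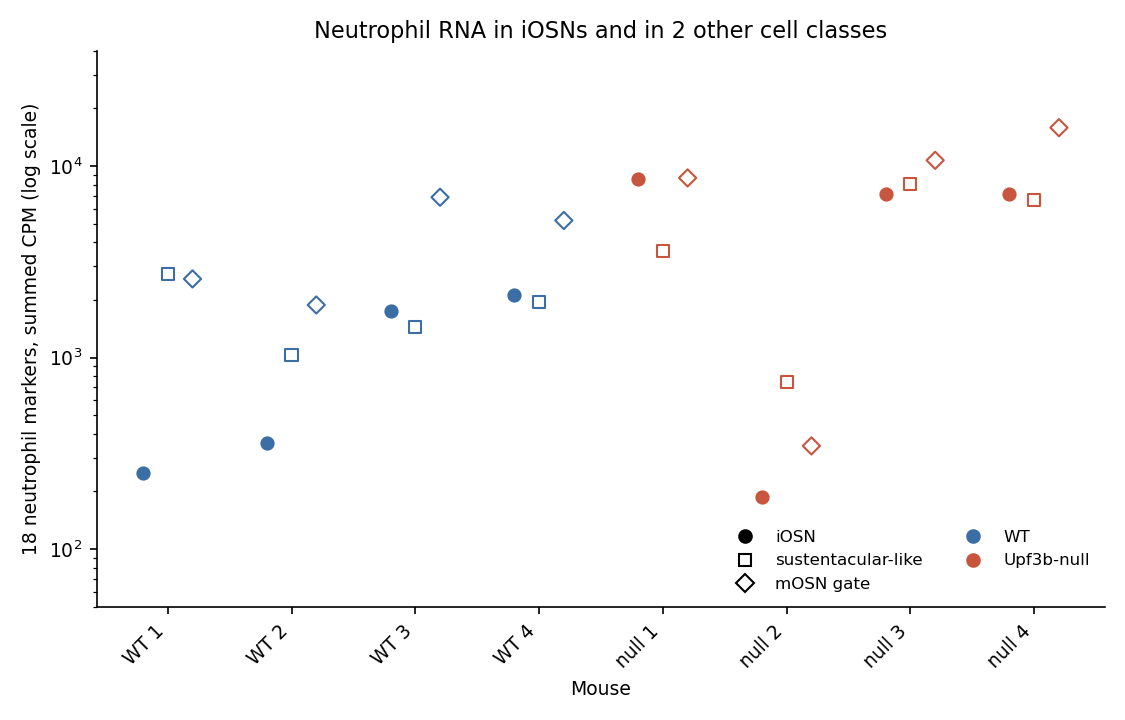
Summed CPM of 18 neutrophil marker genes (log axis) in iOSNs (filled circles), sustentacular-like cells (open squares) and mOSN-gate cells (open diamonds) of each mouse, WT in blue and Upf3b-null in red. In iOSNs the values run from 188 CPM in null 2 to 8563 CPM in null 1, and the other classes of null 2 are also the lowest of their class.

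Whether the effect of genotype differs between iOSNs and mOSN-gate cells of the same mice was tested by the interaction of stage and genotype, with the mouse as a block. Of 10795 genes, 0 passed (edgeR, 0% called), 343 had an unadjusted p under 0.05, and DESeq2 also called 0. Bri3bp, with a difference of -1.25, and Wfdc21, with 1.58, had low unadjusted p like Selm and the same adjusted p (edgeR interaction adjusted p = 0.871). The interaction of Wfdc21 passed without null replicate 4.

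Sorted mOSNs of other mice gave a further view of the same genes one stage later. Of 11560 transcripts tested there, 26 (0.225%) passed an adjusted p of 0.05 in edgeR, 7 higher and 19 lower in null samples. Both tested Upf3b transcripts were among them, the more abundant of them (ENSMUST00000076265) at 82.3 ± 22.4 CPM in WT and 0.0978 ± 0.196 in null samples (log2 fold change -9.19, edgeR adjusted p = 1.67e-05). No tested transcript of Lmo1, Gm8730, Rps27rt, Bri3bp, Ctnnbip1, Smad1, Stmn2, Calb2 or Camp passed, while those of Wfdc21, Ubtf and Snhg6 were too low for the test (Snhg6 at 2.35 ± 1.70 and 2.55 ± 2.14 CPM). Bri3bp was at 183 ± 28.3 CPM in WT and 210 ± 17.5 in null samples (log2 fold change 0.15, SE 0.11), Ctnnbip1 at 95.2 ± 6.32 and 111 ± 9.35 (0.17, SE 0.11), Smad1 at 51.1 ± 9.11 and 51.0 ± 5.20 (-0.06, SE 0.18) and Lmo1 at 22.8 ± 14.97 and 22.5 ± 19.4 (-0.05, SE 0.66). Gm8730 was at 57.3 ± 9.14 and 92.1 ± 24.4 CPM (0.63, SE 0.21, edgeR adjusted p = 0.284) and Rps27rt at 13.06 ± 4.78 and 10.2 ± 1.58 (-0.38, SE 0.34). Stmn2 was at 715 ± 226 and 586 ± 36.0 CPM and Calb2 at 685 ± 174 and 598 ± 33.8 CPM in these Omp-Cre sorted cells. Camp was at 35.8, 37.4, 21.8 and 31.2 CPM in WT and 25.1, 130, 220 and 29.3 CPM in null samples, and the genotypes overlapped (log2 fold change 1.61, SE 0.61, edgeR adjusted p = 0.322). Selm and Gm10116 were not analysed in the sorted samples.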

How the data were processed

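Single-cell libraries of 4 WT and 4 Upf3b-null mice were analysed as UMI counts per gene and barcode, which the authors deposited without normalization for barcodes that Cell Ranger had called as cells (mm10). For sorted mOSNs, the table that the authors deposited holds raw counts by Ensembl transcript, made with STAR 2.5.2b and featureCounts (Subread) on GRCm38. These tools are named in the submitters' processing notes, which also list Seurat and DESeq2. RiboTag libraries of mOSNs were not used here. The study's limit on mitochondrial reads is printed as under 0.2%. Here 0.2 was read as a fraction and not as a percentage, so the limit used was wider than the printed one.

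iOSNs, INP-gate and mOSN-gate cells were selected by the UMI limits given above. The members and the gene lists were chosen with earlier results of these data known. UMIs were summed per mouse and tested with edgeR 4.0.16 (R 4.3.3, limma 3.58.1) by its robust quasi-likelihood F test after TMM scaling and filterByExpr, with Benjamini-Hochberg adjustment over all genes tested and a limit of 0.05. DESeq2 1.42.0 was the alternative. The genes of the selection rule were fitted but not counted among calls. The interaction test kept the mouse as a block, and sorted mOSN transcripts were fitted on their own (1216784 to 3264827 counts per library, with 22646 of 23010 transcripts matched to a symbol in GENCODE vM21). CPM in the text are UMIs or counts per library total, without TMM factors. Shares and Olfr measures were compared over mice by exact permutation tests (scipy 1.17.1), with p adjusted over the 5 measures. Intervals are exact Clopper-Pearson intervals at 95%, and a count of 0 was read as allowing up to 3 counts per library. Intervals and floors cover counting error alone. Mice are the replicates, and no source says whether the replicate numbers mark a shared day or litter.

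The text names Upf3b, the called genes of the genotype comparison filled up to 5 per direction by the lowest unadjusted p (genes of the rule and Olfr genes aside), the 3 most abundant members of a list, and 15 genes by fold at the iOSN stage. These had at least 100 CPM, and the fold was computed with 20 CPM added. Other names were chosen after their values were seen. Lists cover growth cone, axon guidance, receptor choice, transduction, neurogenic, cell cycle, stress response, zonal, NMD factor, NMD substrate, immediate early, interferon and MHC, and other cell type genes. Olfr, ribosomal, oxidative phosphorylation and mitochondrial genes were taken by symbol. The tests were checked on simulated counts with 200 changed genes. The genotype test in iOSN sums found 0% of them at a log2 change of 1. It found 51.5% at 1.5 and 81.5% at 3. The interaction test found 2% at a log2 change of 1.5. A count of 0 calls in these tests therefore does not show that changes of such size were absent. Analyses used python 3.11.15, numpy 2.4.6, pandas 2.3.3 and matplotlib 3.10.9.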

Additional observations from a re-analysis of the deposited data

Results flagged for a closer look

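Among 59 groups of 4 mice tested for a value far from the other 3 (Dixon's criterion), 7 stood out, and chance marks about 1 group in 20. For the share of iOSNs among gated neuronal cells, null replicate 1 lay far above the other null mice at 23.7%. For the share of iOSNs with an Olfr UMI, null replicate 3 lay above the other null mice at 54.1%. Smad1 was far above the other WT mice in WT replicate 3 at 175 CPM, from 3 cells, and far below the other null mice in null replicate 2 at 13.9 CPM. The summed macrophage markers were high in WT replicate 2 at 1405 CPM, and the summed microvillous markers in WT replicate 4 at 60.1 CPM. Upf3b in iOSNs was at 1.27 CPM in null replicate 1 and at 0 UMIs in the other null mice.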

How the results depend on the processing

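Results that rest on counts of cells are limited by WT replicate 3, with 3 iOSNs, and by null replicate 1, with 660. Leaving out 1 mouse at a time, the difference in iOSN share ranged from -0.380 to 2.17 percentage points of kept cells and from -1.24 to 4.93 of neuronal cells, below 0 without null replicate 1. Without WT replicate 3 they were 0.188 and 0.573. After thinning to 1500 UMIs, with the limit on Gap43 and Gng8 lowered to 4 UMIs at the same time, the latter was 8.59 points, against 3.03 (exact permutation p = 0.571), and at 12 UMIs or more of Gap43 and Gng8 the 2 differences were 0.707 and 1.81. Leaving out WT replicate 3 and null replicate 1 together, chosen after seeing the data, gave -1.41 and -3.70. The difference in iOSNs with an Olfr UMI ranged from -20.0 without null replicate 3 to -10.5 without WT replicate 3 (exact permutation p from 0.0286 to 0.229) over the mice left out. It was -8.74 (exact permutation p = 0.4) without WT replicate 3 and null replicate 1 together, against -14.9, and kept its sign in all 15 alternatives, with p of at most 0.667. Differences in iOSNs with at least 2 Olfr genes ranged from -2.69 to 5.28 over the mice left out, with 0.195 at 12 UMIs or more of Gap43 and Gng8, 4.15 in replicates 1 and 2 alone and -4.62 in replicates 3 and 4 alone. For listed leading Olfr genes the range was -8.97 to 0.722, with 0.183 in replicates 1 and 2 alone, -12.99 in replicates 3 and 4 alone, again chosen after seeing the data, -0.719 with all UMIs and -1.33 at 12 UMIs or more, against -4.03. For each of these, the cause was not tested.

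Genotype calls in iOSNs (0) ranged from 0 to 3 over the mice left out. Without null replicate 2 they were Camp, Ngp and Wfdc21, each higher. With no filter on low counts 60 genes were called (43 higher, 17 lower), and without cells that held RNA of other types 1, from 2 mice of each genotype. A term for the set of libraries (replicates 1 and 2, replicates 3 and 4) and replicates 1 and 2 alone, both chosen after seeing the data, gave 0 calls by edgeR, with 144 and 278 genes at an unadjusted p under 0.05. Calls of the interaction of stage and genotype ranged from 0 to 20, with 20 without null replicate 4 and 13 with no filter, Selm among both, among the 4 without WT replicate 2 and among the 60 above (edgeR adjusted p = 0.047). Neutrophil genes were also called for the interaction. Without null replicate 4 these were Lcn2, S100a8, S100a9, Camp, Wfdc21 and Retnlg. Without WT replicate 4 they were S100a8, S100a9 and Retnlg, without null replicate 3 S100a9, and with no filter Lcn2, S100a8 and S100a9. Transcripts of the named genes other than Upf3b called in sorted mOSNs ranged from 0 to 1, with Gm8730 called without null replicate 1. Calb2 changed sign, with a range of -0.10 to 0.47 over the mice left out, -0.24 without cells with RNA of other types, -0.0148 at the same number of cells per mouse (37, without WT replicate 3), -0.28 in replicates 1 and 2 alone and -0.0538 without WT replicate 3 and null replicate 1. The other 13 genes followed through the alternatives (Selm, Lmo1, Gm8730, Wfdc21, Rps27rt, Bri3bp, Ctnnbip1, Gm10116, Ubtf, Smad1, Stmn2, Snhg6 and Camp) kept their sign wherever a value was given. Without cells with RNA of other types Ctnnbip1 moved from -0.72 to -0.30 and Ubtf from -0.85 to -0.47, Ubtf was at -0.32 in replicates 1 and 2 alone and Lmo1 moved from 1.33 to 0.87 at the same number of cells per mouse. Stmn2, at -0.16, ranged from -0.30 with library size alone to -0.00675 with no filter. Other genes with a printed fold change were not followed. Replicates 3 and 4 alone were not fitted for calls.

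The replicate numbers are shared by the genotypes. Deviations of same-numbered mice correlated at 0.35, 0.41, -0.08 and 0.49, so the numbers were not taken to pair the mice. A fit with the replicate block called 6 genes, all higher in null mice (Chil3, Cd24a, Gm8730, Selm, Wfdc21 and Macrod1), with edgeR adjusted p of 0.00935 for Selm, 0.0016 for Gm8730 and 0.000836 for Wfdc21. WT replicates 1 and 3 and null replicate 3 correlated best with a mouse of another number. With the replicate block, an exact sign-flip test put the difference in listed leading Olfr genes at 0.555.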
